A study of Mus musculus with 30 samples.

Results

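The GIMAP genes (GTPases of the immunity-associated proteins) were followed across sorted mouse blood and marrow cells and a culture of converted endothelium. The members were the rows with the symbols Gimap1, Gimap3, Gimap4, Gimap5, Gimap6, Gimap7, Gimap8 and Gimap9, which are 8 of the 23060 gene symbols measured. All 8 reached 1 FPKM (fragments scaled to transcript length and to the mapped fragments of a library) or more in at least 2 libraries and entered the tests. They were set against 18 genes of lymphocyte homeostasis and 17 other immune GTPases.

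RNA came from cells isolated by flow cytometry with a purity mask. The FGRS group held 3 libraries of adherent cells, annotated as derived, sorted as KLS on day 28 of co-culture with HUVEC, human umbilical vein endothelial cells. FGRS abbreviates Fosb, Gfi1, Runx1 and Spi1, the transcription factors of the conversion. The rEC groups, annotated as derived and taken here as descendants of converted endothelium, were freshly isolated. They held 2 CD4 T cell, 3 CD8 T cell, 2 Gr1+ Cd11b+ myeloid and 3 B220+ B cell libraries from blood, and 3 LKS-SLAM libraries (the long-term stem cell gate) from bone marrow. The control groups, annotated as wild type and also freshly isolated, held 2 CD4, 3 CD8, 2 myeloid, 3 B cell and 3 LKS-SLAM libraries. Replicate 2 of the rEC LKS-SLAM cells and of the rEC B cells came from a single clone, 47G1, in primary recipients. Secondary recipients gave replicate 3 of those 2 groups, replicate 2 of the rEC CD4 cells and replicates 2 and 3 of the rEC CD8 cells. The labels do not say that replicates came from separate animals, so p-values measure the spread between libraries, which may in part be technical. The labels used here state no age or mouse strain.

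GIMAP proteins share a guanine nucleotide-binding domain of the AIG1 type and sit mostly on intracellular membranes. They are known for the survival and steady numbers of lymphocytes. Loss of Gimap5 leaves mice and rats short of peripheral T cells, and in mice it also disturbs haematopoietic stem cells. Gimap1 is needed in mice for mature B and T cells. Mouse Gimap3 lies on the mitochondrial outer membrane, Gimap4 promotes the death of T cells committed to apoptosis, and Gimap6 binds an Atg8-family protein of autophagy. GIMAP7 acts in human cells as a partner that speeds GTP hydrolysis by other members. Gimap8 is a long member with repeated G domains.

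All members lie in a single cluster on chromosome 6, spanning 123.6 kb from 48647234 to 48770851 on mm10 in the GENCODE M21 annotation. In chromosomal order they are Gimap8, Gimap9, Gimap4, Gimap6, Gimap7, Gimap1, Gimap5 and Gimap3. Gimap6 and Gimap3 lie on the minus strand and the other 6 on the plus strand. Some reads in this cluster cannot be given to a single gene. The antisense transcript Gimap1os covers 1107 of the 3073 exonic bases of Gimap1, or 36.0%, and the libraries did not keep strand. The readthrough gene Gm28053 covers 6.44% of the exonic bases of Gimap1, 3.48% of Gimap7 and 3.69% of Gimap5. At the read length of 51 bases, 183 of the 2527 distinct 51-base words in Gimap3 transcripts, or 7.24%, also occur in Gimap5. The same words are 4.36% of those in Gimap5, and no other member shared a word with another. Values of Gimap1, Gimap3, Gimap5 and Gimap7 therefore carry an uncertain part from a neighbour. That part also depends on the level of the neighbour, so the percentages above do not bound it.

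The promoter windows of 5 members are printed because these genes stand at the opposite ends of the results below. Gimap3, Gimap4 and Gimap7 had the largest differences between lymphocytes and LKS-SLAM cells, and Gimap5 and Gimap6 had the smallest in CD4 and B cells. Each run is the 250 bases before the RefSeq transcript start on GRCm38.p6, 5′ to 3′ on the gene's own strand. Capitals mark matches, on either strand, to the RUNX word TGTGGT or to the ETS word AGGAAG, and no match overlapped another. Of the FGRS factors, Runx1 and the ETS factor Spi1 bind words of these kinds.
Gimap3 (chr6:48770852-48771101, minus strand): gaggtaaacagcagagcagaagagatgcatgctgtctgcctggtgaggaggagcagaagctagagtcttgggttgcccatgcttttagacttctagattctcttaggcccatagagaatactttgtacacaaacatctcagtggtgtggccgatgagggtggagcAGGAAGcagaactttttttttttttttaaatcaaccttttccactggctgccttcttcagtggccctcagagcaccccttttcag
Gimap4 (chr6:48684328-48684577, plus strand): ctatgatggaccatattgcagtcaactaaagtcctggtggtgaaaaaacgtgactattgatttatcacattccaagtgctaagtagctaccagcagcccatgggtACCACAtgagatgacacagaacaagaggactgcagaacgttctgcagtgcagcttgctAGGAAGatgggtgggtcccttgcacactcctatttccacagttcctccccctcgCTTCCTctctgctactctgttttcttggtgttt
Gimap7 (chr6:48718371-48718620, plus strand): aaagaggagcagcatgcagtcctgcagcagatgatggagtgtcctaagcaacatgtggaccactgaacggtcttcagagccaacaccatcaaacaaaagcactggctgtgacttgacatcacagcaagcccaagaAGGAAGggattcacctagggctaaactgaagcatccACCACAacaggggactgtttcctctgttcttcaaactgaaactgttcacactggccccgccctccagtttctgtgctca
Gimap5 (chr6:48745947-48746196, plus strand): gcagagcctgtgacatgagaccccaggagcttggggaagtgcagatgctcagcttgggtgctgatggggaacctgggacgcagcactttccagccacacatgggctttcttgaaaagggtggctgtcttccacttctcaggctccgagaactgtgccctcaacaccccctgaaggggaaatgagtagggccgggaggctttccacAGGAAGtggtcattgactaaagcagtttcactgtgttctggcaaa
Gimap6 (chr6:48708245-48708494, minus strand): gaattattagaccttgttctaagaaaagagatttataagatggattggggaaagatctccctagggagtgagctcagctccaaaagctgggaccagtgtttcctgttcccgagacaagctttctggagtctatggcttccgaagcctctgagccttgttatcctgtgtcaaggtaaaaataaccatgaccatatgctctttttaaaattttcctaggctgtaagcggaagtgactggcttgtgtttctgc

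RefSeq held promoters for all 8 members, in 9 windows since Gimap8 has 2 starts. An ETS word was present in 7 of the 9 windows, against 29.5% of the 32851 mouse promoter windows of the same length. A RUNX word was present in 3 of the 9, those of Gimap4, Gimap7 and Gimap1, against 14.0% of all windows. The TCF and LEF word CTTTGA was in none of the 9 windows and in 13.8% of all windows. Gimap6 and 1 window of Gimap8 held none of these words. Gimap5 and Gimap3 each held 1 ETS word and no RUNX word.

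Between 10165 and 12550 genes per library reached 1 FPKM, and the FPKM of a library summed to between 510115 and 727885. Fragment counts are not part of the files used here, so depth and counting intervals are unknown. Markers of the labelled cell type were summed in each library as a check of the sort. The 9 T cell markers came to between 1422 and 2700 FPKM in the CD4 and CD8 libraries, and the 8 neutrophil markers to between 31393 and 84992 FPKM in the myeloid libraries. The 7 B cell markers came to between 6436 and 7694 FPKM in B cell libraries other than 1, and the 7 stem cell markers to between 473 and 731 FPKM in LKS-SLAM libraries other than 1. The library labelled rEC B cell replicate 1 held T cell transcripts, with 198 FPKM of Cd3e and 184 FPKM of Cd8a, and its B cell markers summed to 1920.4 FPKM, against 6436 and 7694 FPKM in the other rEC B cell libraries. The library labelled rEC LKS-SLAM replicate 2 stood apart with 201 FPKM of the erythroid factor Klf1. Its stem cell markers summed to 127 FPKM, against 724 and 731 FPKM in the other rEC LKS-SLAM libraries. Leaving out that B cell library alone changed no member's call, and calls that changed without rEC LKS-SLAM replicate 2 are given beside the result. Control LKS-SLAM replicate 3 differed more mildly: its T cell markers summed to 52.9 FPKM and its B cell markers to 133 FPKM, while those of replicates 1 and 2 summed to 11.1 and 10.2 FPKM and to 35.3 and 41.2 FPKM. Its label, like that of rEC replicate 1, reads long-term hematopoietic stem cell, and the other 4 LKS-SLAM libraries are labelled hematopoietic stem cell.

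The family as a whole separated lymphocytes from every other group. The summed FPKM of the 8 members averaged 23 ± 10.7 in FGRS cells (SD, n = 3), 2767 ± 201 in control CD4 cells (SD, n = 2), 2141 ± 157 in control CD8 cells (SD, n = 3) and 1793 ± 166 in control B cells (SD, n = 3). The sum was 21.7 ± 6.68 in control myeloid cells (SD, n = 2) and 375 ± 37.2 in control LKS-SLAM cells (SD, n = 3). The FGRS and myeloid sums were close to each other and far below the rest. These are bulk samples, in which fewer cells of a type and less RNA per cell cannot be told apart.

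**Figure D1:**
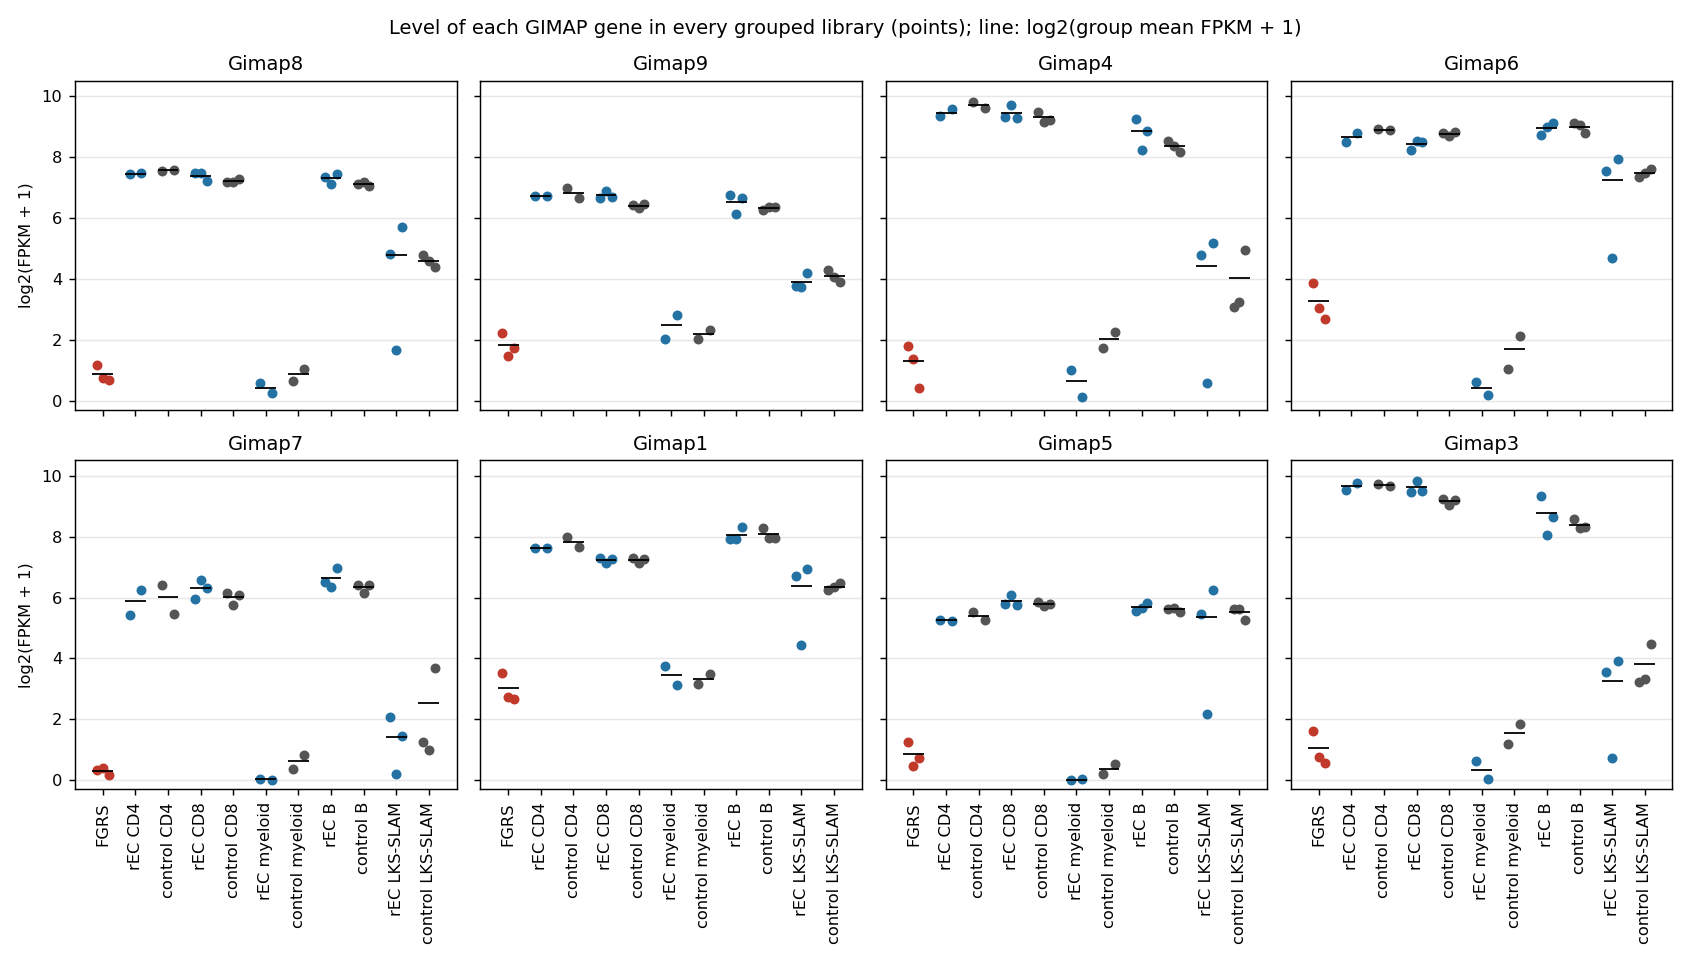
Level of each GIMAP gene as log2(FPKM + 1), 1 panel per gene. Points are libraries and each short line is the log2 of the group's mean FPKM plus 1, with FGRS first and then rEC and control libraries of each sorted cell type. Gimap3, Gimap4 and Gimap7 are high in lymphocytes alone, while Gimap5 averages 41.3 to 54.2 FPKM in control lymphocytes and 44.7 FPKM in control LKS-SLAM cells.

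The question of how far each member marks lymphocytes was addressed by setting control lymphocytes against control LKS-SLAM cells. In CD4 cells 7 of the 8 members rose, in CD8 cells 6 and in B cells 7, called by limma on log2(FPKM + 1) at a Benjamini-Hochberg adjusted p of 0.05 over 14083 genes. Among all genes tested, 18.6% rose in CD4 cells, 17.0% in CD8 cells and 18.9% in B cells. No member fell. The median log2 difference of the members was 2.85 in CD4, 2.47 in CD8 and 2.39 in B cells, and that of all genes was -0.21, -0.21 and -0.25.

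Gimap3, Gimap4 and Gimap7 had the largest differences. Gimap3 had 844 and 800.0 FPKM in control CD4 cells, 606, 520.1 and 592 FPKM in CD8 cells and 385, 308 and 314 FPKM in B cells, against 8.44, 9.0 and 21.4 FPKM in LKS-SLAM cells. Every lymphocyte library lay above every LKS-SLAM library, and LKS-SLAM replicate 3 was the highest of its group. The log2 difference of Gimap3 was 6.0 ± 0.60 in CD4 cells (SE, limma adjusted p = 5.01e-08), 5.48 ± 0.53 in CD8 cells (adjusted p = 2.85e-08) and 4.70 ± 0.53 in B cells (adjusted p = 1.96e-07).

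Gimap4 stood at 891 and 779 FPKM in control CD4 cells, at 720, 572 and 602 FPKM in CD8 cells and at 370.1, 328 and 288 FPKM in B cells, against 7.57, 8.57 and 30.3 FPKM in LKS-SLAM cells. Its log2 differences were 5.93 ± 0.82 in CD4, 5.52 ± 0.73 in CD8 and 4.58 ± 0.73 in B cells (SE, limma adjusted p = 4.58e-06, 2.32e-06 and 1.95e-05). Gimap3 and Gimap4 thus moved almost as a pair, with a Pearson's r of 0.999 over the 11 group means, which share libraries and a common split into lymphocytes and other cells. Gimap7 had 83.4 and 43.0 FPKM in control CD4 cells, 70.2, 52.6 and 66.8 FPKM in CD8 cells and 84.9, 70.0 and 84.4 FPKM in B cells, against 1.40, 0.986 and 11.9 FPKM in LKS-SLAM cells. It rose by 3.95 ± 0.55, 4.01 ± 0.49 and 4.35 ± 0.49 on the log2 scale in CD4, CD8 and B cells (SE, limma adjusted p = 5.19e-06, 8.26e-07 and 2.09e-07). In LKS-SLAM replicate 3 all 3 genes were highest, and that library also held the most T and B cell marker FPKM of its group, whose part in the values was not tested.

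Gimap8 and Gimap9 were also higher in every lymphocyte library than in every LKS-SLAM library. Gimap8 had 187 and 189.8 FPKM in control CD4 cells, 145, 144 and 155 FPKM in CD8 cells and 139, 144 and 133 FPKM in B cells, against 26.9, 23.1 and 20.0 FPKM in LKS-SLAM cells. Gimap9 had 127 and 99.6 FPKM in CD4, 84.9, 79.4 and 87.8 FPKM in CD8 and 75.3, 81.1 and 82.3 FPKM in B cells, against 18.6, 15.6 and 14.1 FPKM in LKS-SLAM cells. Neither gene was raised in LKS-SLAM replicate 3. Gimap9 rose by 2.74 ± 0.23 in CD4, 2.32 ± 0.21 in CD8 and 2.24 ± 0.21 in B cells on the log2 scale (SE, limma adjusted p = 4.92e-09, 8.06e-09 and 1.04e-08), and Gimap8 by 2.97 ± 0.61, 2.62 ± 0.54 and 2.53 ± 0.54 (adjusted p = 0.000354, 0.000372 and 0.000454).

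Gimap1 and Gimap6 were already abundant in LKS-SLAM cells and differed less. Gimap6 had 480.2 and 477 FPKM in control CD4 cells, 443, 413 and 456 FPKM in CD8 cells and 557, 537 and 447 FPKM in B cells, against 161, 176 and 193 FPKM in LKS-SLAM cells. The groups did not overlap, and the log2 differences were 1.44 ± 0.56 in CD4, 1.31 ± 0.50 in CD8 and 1.53 ± 0.50 in B cells (SE, limma adjusted p = 0.0369, 0.0341 and 0.0128). The CD4 and CD8 calls of Gimap6 were lost on leaving out any single library of the compared groups (adjusted p 0.0532 to 0.128 and 0.0536 to 0.0855), and with a pseudocount of 0.1 (adjusted p = 0.0575 and 0.0539), although the difference itself hardly moved. Gimap1 had 252 and 199.7 FPKM in CD4 cells, 157, 140.4 and 154 FPKM in CD8 cells and 312, 249 and 248 FPKM in B cells, against 74.8, 80.3 and 88.5 FPKM in LKS-SLAM cells. It was higher in CD4 cells by 1.46 ± 0.44 and in B cells by 1.71 ± 0.39 on the log2 scale (SE, limma adjusted p = 0.00877 and 0.000873). The CD4 call was lost without control CD4 replicate 1 (1.29, adjusted p = 0.0794). In CD8 cells the Gimap1 difference was 0.88 ± 0.39 (adjusted p = 0.0667, 95% interval 0.07 to 1.70) and became a call without rEC LKS-SLAM replicate 2, whose spread entered the pooled estimate (adjusted p = 0.000411).

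Gimap5, the member tied in mice to both peripheral T cells and stem cells, was the exception. It had 45.4 and 37.2 FPKM in control CD4 cells, 56.9, 52.1 and 53.7 FPKM in CD8 cells and 48.7, 49.9 and 45.1 FPKM in B cells, against 48.1, 48.4 and 37.5 FPKM in LKS-SLAM cells. CD4 and B cell values overlapped those of LKS-SLAM cells, and CD8 values lay just above them. The log2 difference was -0.11 in CD4, 0.28 in CD8 and 0.11 in B cells, with 95% intervals of -1.41 to 1.19, -0.88 to 1.45 and -1.06 to 1.27. No difference was detected, and the intervals reach above a doubling in all 3 cell types and below a halving in CD4 and B cells. Their width comes from a spread pooled over all 11 groups, which includes rEC LKS-SLAM cells at 42.7, 3.51 and 75.4 FPKM of Gimap5. Gimap5 shares 183 of its 51-base words with Gimap3, and reads from those words cannot be given to a single gene. Gimap3 ran from 308 to 844 FPKM in control lymphocytes and from 8.44 to 21.4 FPKM in control LKS-SLAM cells. Any part of the Gimap5 values that came from Gimap3 could therefore be larger in lymphocytes. Its size was not tested.

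**Figure D2:**
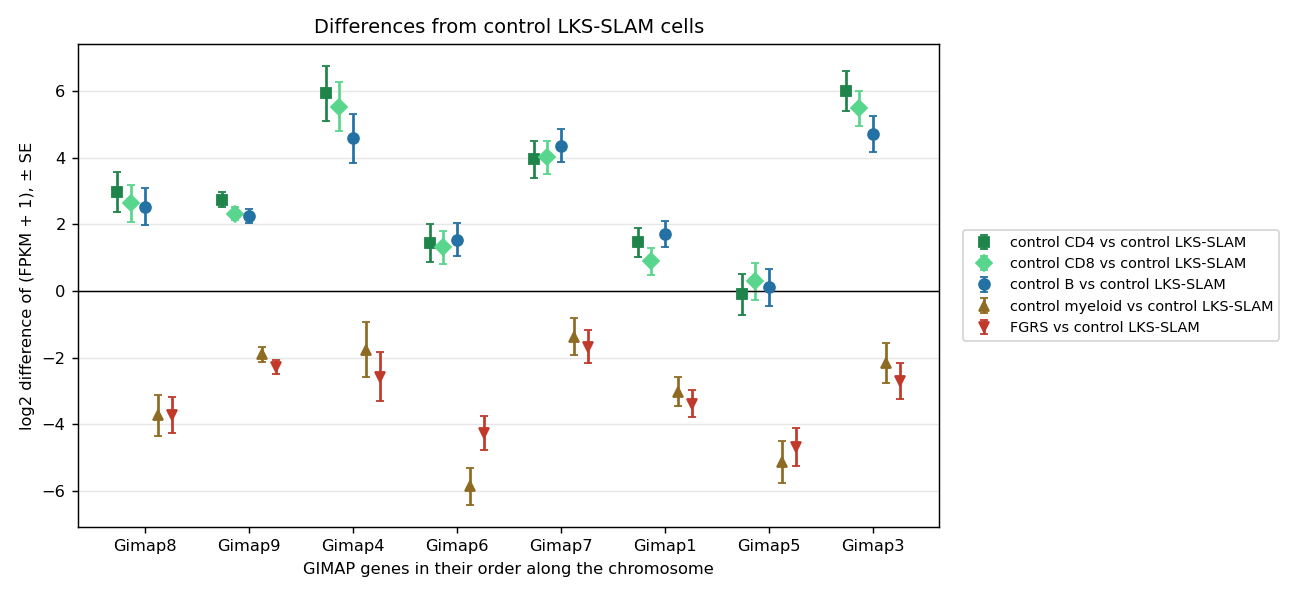
Log2 difference ± SE of each GIMAP gene from control LKS-SLAM cells, for control CD4, CD8, B and myeloid cells and for FGRS cells, with genes in chromosomal order. Values for lymphocytes run from near 0 for Gimap5 to 6.0 for Gimap3 in CD4 cells, and every myeloid and FGRS value is below 0.

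The same contrasts among rEC cells gave 7 members that rose in each of CD4, CD8 and B cells against rEC LKS-SLAM cells, where 19.1%, 20.2% and 20.2% of all genes rose. Gimap3 had 745 and 857 FPKM in rEC CD4 cells, 701, 915 and 729 FPKM in rEC CD8 cells and 642, 262 and 401 FPKM in rEC B cells, against 10.7, 0.680 and 14.1 FPKM in rEC LKS-SLAM cells. Its log2 differences were 6.90 ± 0.59, 6.86 ± 0.53 and 5.93 ± 0.53 (SE, limma adjusted p = 6.78e-09, 8.15e-10 and 7.8e-09). The other rises ran from 1.21 ± 0.39 for Gimap1 in rEC CD8 cells to 5.94 ± 0.82 for Gimap4 in rEC CD4 cells. Gimap5 again did not pass in any of the 3, at 0.62 ± 0.63, 1.25 ± 0.56 and 1.06 ± 0.56 (SE, limma adjusted p = 0.431, 0.0642 and 0.117). Without rEC LKS-SLAM replicate 2, Gimap5 was lower in rEC CD4 cells by a log2 difference of -0.61 (adjusted p = 0.0298), and the Gimap1 rise in rEC CD8 cells was 0.41 and no longer a call (adjusted p = 0.109). Without rEC LKS-SLAM replicate 1, Gimap5 was higher in rEC CD8 and B cells, by 1.66 and 1.47 (adjusted p = 0.0271 and 0.0497). Without rEC LKS-SLAM replicate 3, Gimap5 was higher in rEC CD4, CD8 and B cells, by 1.44, 2.07 and 1.88 (adjusted p = 0.0324, 0.00149 and 0.00343). The Gimap6 rise in rEC CD4 cells was lost without rEC CD4 replicate 2 (1.79, adjusted p = 0.0563). Fitted on the compared groups alone, 3, 4 and 4 members passed in CD4, CD8 and B cells, a fit to which the all-gene shares above do not apply.

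Within lymphocytes the mix of members differed by lineage. Gimap3 and Gimap4 together gave 59.6% and 60.1% of the family's FPKM in the control CD4 libraries, 55.1% to 58.1% in the 3 control CD8 libraries and 36.0% to 38.3% in the 3 control B libraries. Gimap6 was the leading member of control B cells, at 28.6% of the family's FPKM as a mean over libraries, while Gimap4 led in CD4 cells at 30.1% and in CD8 cells at 29.4%. Gimap1 was 15.0% of the family in control B cells and 8.13% and 7.03% in CD4 and CD8 cells. For single genes, none of the 8 members passed in CD4 against B cells, where 21.5% of all genes tested passed, nor in CD8 against B cells, where 24.3% did. Gimap3 was nearest in CD4 against B cells, with a log2 difference of 1.30 ± 0.59 (SE, limma adjusted p = 0.138, 95% interval 0.06 to 2.53), and the groups did not overlap. Gimap4 was at 1.34 ± 0.82 there (adjusted p = 0.30). Without rEC LKS-SLAM replicate 2, both became calls (adjusted p = 0.00746 and 0.0208), and so did the lower Gimap1 in CD8 cells at -0.83 (adjusted p = 0.00161, against 0.143 with that library). Between CD4 and CD8 cells none of the 8 members passed, in control or in rEC cells, where 3.48% and 1.88% of all genes did.

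In rEC cells the split between T and B cells was also present, with 1 library apart. Gimap3 and Gimap4 gave 60.3% and 61.0% of the family in rEC CD4 libraries and 60.2% to 64.7% in rEC CD8 libraries, with every rEC CD8 library above every control CD8 library. They gave 34.1% and 39.4% in rEC B cell replicates 2 and 3 and 54.0% in replicate 1, the library that held T cell transcripts. That library had 642 FPKM of Gimap3 and 614 FPKM of Gimap4, above every other B cell library, and 426 FPKM of Gimap6, below every other B cell library.

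**Figure D3:**
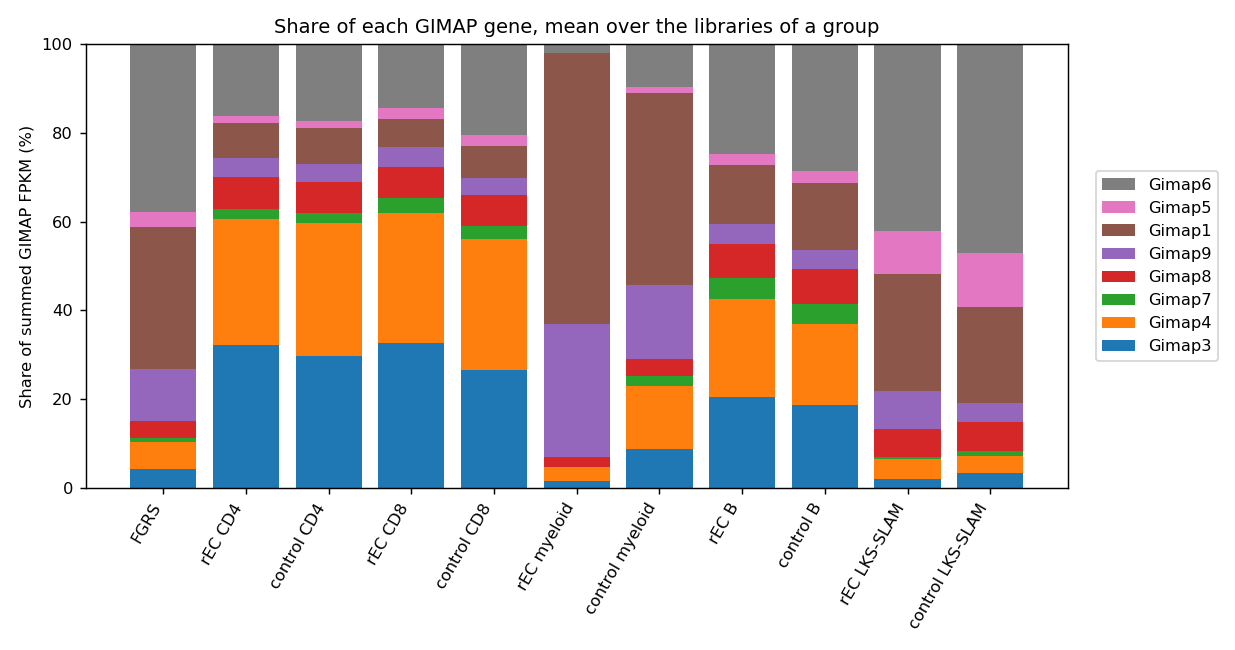
Share in percent of the summed GIMAP FPKM taken by each member, as the mean over the libraries of a group, in stacked bars that add to 100. Gimap3 and Gimap4 fill most of the T cell bars, Gimap6 and Gimap1 most of the FGRS and control LKS-SLAM bars, and Gimap1 and Gimap9 most of the myeloid bars.

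Gr1+ Cd11b+ myeloid cells had low levels of the whole family. All 8 members fell in control myeloid cells against control B cells, where 35.8% of all genes tested fell, with a median log2 difference of -6.0 for the members and -0.25 for all genes. Gimap6 had the largest difference, with 1.09 and 3.43 FPKM in myeloid cells, against 557, 537 and 447 FPKM in B cells, a log2 difference of -7.39 ± 0.56 (SE, limma adjusted p = 4.07e-10). Gimap1 and Gimap9 kept the highest levels. Gimap1 had 8.03 and 10.2 FPKM in control myeloid cells and Gimap9 had 3.13 and 4.0 FPKM, and together they made up 65.8% and 54.0% of the family's small sum in the 2 libraries. The 7 B cell markers summed to 19.8 and 45.2 FPKM in the control myeloid libraries and to 8.18 and 6.74 FPKM in the rEC myeloid libraries, and all 7 were above 0 in each of the 4.

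Against control LKS-SLAM cells, 7 members fell in control myeloid cells, where 49.1% of all genes tested fell. The members' median was -2.59 and that of all genes -0.61. Gimap5 had 0.151 and 0.459 FPKM in myeloid cells, against 48.1, 48.4 and 37.5 FPKM in LKS-SLAM cells, a log2 difference of -5.13 ± 0.63 (SE, limma adjusted p = 3.95e-07). Gimap6 fell by 5.86 ± 0.56 and Gimap8 by 3.74 ± 0.61 on the log2 scale (adjusted p = 1.22e-08 and 1.56e-05). Gimap4 did not pass at -1.76 ± 0.82 (adjusted p = 0.0635, 95% interval -3.47 to -0.06) and did so without rEC LKS-SLAM replicate 2 (adjusted p = 0.000986) or without control LKS-SLAM replicate 1 (-2.10, adjusted p = 0.0494). Gimap7 at -1.38 ± 0.55 (adjusted p = 0.0329) was lost without control LKS-SLAM replicate 3, at -0.52 (adjusted p = 0.277), and without either myeloid library (adjusted p = 0.179 and 0.0588). Gimap3 fell by 2.16 ± 0.59 (adjusted p = 0.00305), or by 1.36 with quantile normalisation (adjusted p = 0.0502). In rEC myeloid cells 7 members fell against rEC LKS-SLAM cells, where 49.8% of all genes fell, and Gimap7 alone did not pass at -1.22 ± 0.55 (adjusted p = 0.0563). It did so without rEC LKS-SLAM replicate 2 (-1.74, adjusted p = 0.00739) and with a pseudocount of 0.1 (-3.29, adjusted p = 0.00129). Fitted on those groups alone, 2 members passed, and the 49.8% of all genes does not apply to that fit.

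The question of whether blood and stem cells of rEC origin carry the family at control levels was addressed by 5 comparisons of rEC with control cells. None of the 8 members passed in any of them. Among all genes tested, 1.32% passed in LKS-SLAM cells, 0.227% in myeloid cells, none of 14083 in B cells, 0.0213% in CD4 cells and 1.13% in CD8 cells. The mean of the 5 origin differences passed for no member and for 0.895% of all genes, and lay between -0.52 ± 0.24 for Gimap6 (SE, 95% interval -1.03 to -0.01, limma adjusted p = 0.491) and 0.10 ± 0.10 for Gimap9. An F test of whether the origin difference varied between the cell types passed for no member (adjusted p = 1 for each) and for 0.277% of all genes.

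The origin differences were measured with unequal precision. In CD4 cells the member differences ran from -0.25 to -0.04, in B cells from -0.05 to 0.43 and in CD8 cells from -0.36 to 0.44 on the log2 scale. Without rEC B cell replicate 1, which held T cell transcripts, the B cell differences ran from -0.04 for Gimap3 to 0.33 for Gimap7, and Gimap4 was at 0.20, against 0.43 with it. For Gimap9, the least variable member, the 95% intervals were -0.62 to 0.43 in CD4, -0.24 to 0.62 in B and -0.09 to 0.77 in CD8 cells. For Gimap4, the most variable, they were -2.12 to 1.62, -1.09 to 1.96 and -1.38 to 1.68. These widths come from a spread pooled over all 11 groups, not from the lymphocyte libraries alone. That spread includes rEC LKS-SLAM cells, at 26.4, 0.513 and 35.2 FPKM of Gimap4. For members as variable as Gimap4, changes of several fold in either direction would pass undetected in this fit. The Gimap9 intervals given here reach neither a doubling nor a halving.

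**Figure D4:**
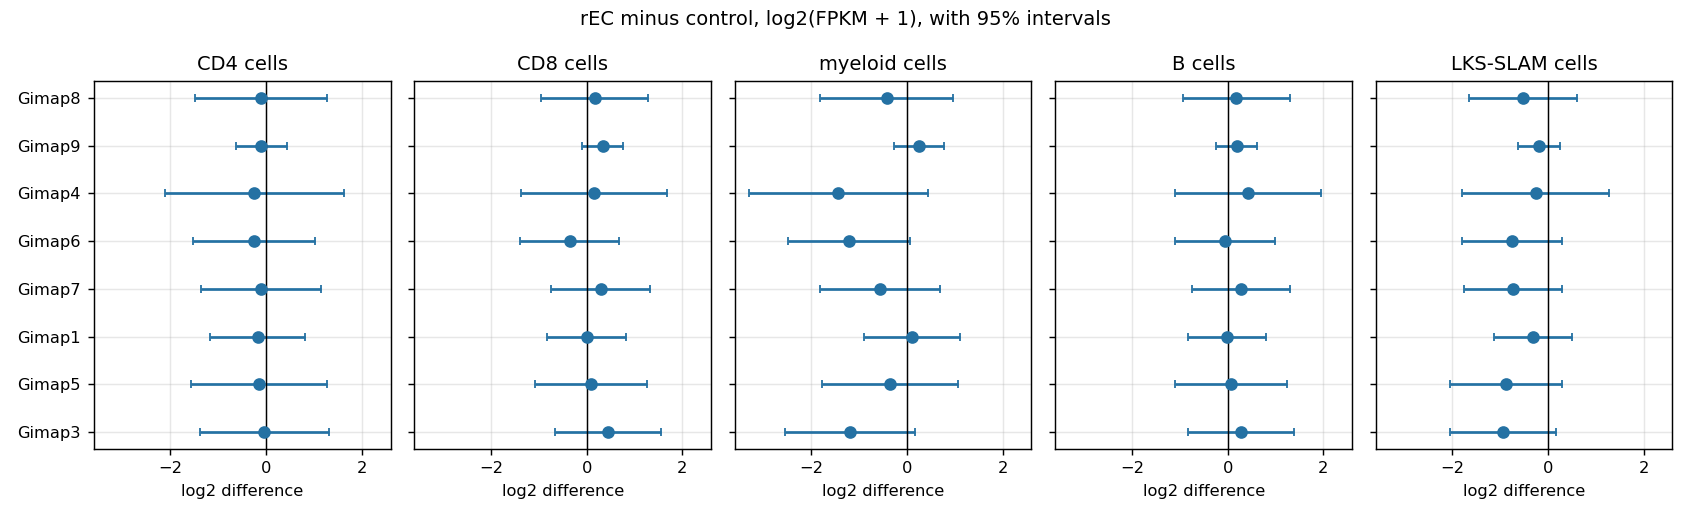
Log2 difference of rEC minus control cells with its 95% interval, for each GIMAP gene in 5 sorted cell types. All points lie between -1.44 and 0.44, and no interval belongs to a difference that passed the adjusted test.

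Of the 40 pairs of member and cell type, the rEC and control ranges did not overlap in 13, with rEC higher in 2 and lower in 11, in groups of 2 or 3 libraries. By cell type they did not overlap for 3 members in CD8 cells, where the ranges of 30.5% of all genes tested did not, for 4 in CD4 cells (37.3% of all genes), for 6 in myeloid cells (44.2%), and for none in LKS-SLAM cells (6.44%) or B cells (6.94%). The CD4 and CD8 counts are near those shares. By direction, 6 members were lower in rEC myeloid cells, where 28.6% of all genes were lower and 15.6% higher. In CD4 cells 4 were lower, where 21.1% of all genes were lower and 16.1% higher. In CD8 cells 2 were higher and 1 lower, where 14.9% of all genes were higher and 15.7% lower. The 2 higher ones were Gimap3 and Gimap9 in CD8 cells. Gimap3 had 701, 915 and 729 FPKM in rEC CD8 cells, against 606, 520.1 and 592 FPKM in control CD8 cells, and Gimap9 had 101, 118 and 103 FPKM, against 84.9, 79.4 and 87.8 FPKM. Gimap6 went the other way in the same libraries, with 302, 365 and 360.2 FPKM in rEC cells, against 443, 413 and 456 FPKM in control cells. The log2 differences were 0.44 ± 0.53, 0.34 ± 0.21 and -0.36 ± 0.50 (SE, limma adjusted p = 1, 0.899 and 1). The 7 B cell markers summed to 52.3, 18.2 and 71.2 FPKM in rEC CD8 cells, against 536, 349 and 232 FPKM in control CD8 cells. All 7 were above 0 in all 6 libraries, and their part in the differences was not tested.

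In myeloid cells 6 members had lower values in both rEC libraries, at levels near the low end of the measurement. Gimap4 had 1.01 and 0.104 FPKM in rEC myeloid cells, against 2.37 and 3.82 FPKM in control myeloid cells, and Gimap3 had 0.536 and 0.0208 FPKM, against 1.31 and 2.57 FPKM. Gimap1 and Gimap9 overlapped, at 12.5 and 7.65 FPKM and at 3.13 and 6.14 FPKM in rEC cells. The B cell marker sums given above were also lower in both rEC myeloid libraries, and their part was not tested. In CD4 cells Gimap1, Gimap4, Gimap6 and Gimap8 had lower ranges in rEC cells, with log2 differences from -0.254 for Gimap6 to -0.101 for Gimap8.

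In LKS-SLAM cells the ranges of all 8 members overlapped. Gimap6 had 184, 24.8 and 242 FPKM in rEC cells, against 161, 176 and 193 FPKM in control cells. Gimap5 had 42.7, 3.51 and 75.4 FPKM in rEC cells, against 48.1, 48.4 and 37.5 FPKM in control cells. The low value in each case was that of replicate 2, the library with 201 FPKM of Klf1, in which all 8 members were lower than in any other LKS-SLAM library. Gimap9 was lower by the least, at 12.3 FPKM there and 12.6 and 17.2 FPKM in the other rEC libraries. Replicate 2 also had fewer genes at 1 FPKM or more, 11065 against 12101 to 12550 in the other LKS-SLAM libraries. The share of all genes that were lowest in replicate 2 was not counted, so the low values are not particular to the members. The family summed to 64.8 FPKM in replicate 2 and to 411 and 559 FPKM in replicates 1 and 3, against 346, 362 and 417 FPKM in control cells.

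The rEC minus control differences in LKS-SLAM cells all lay below 0, from -0.94 ± 0.53 for Gimap3 (SE, limma adjusted p = 0.643) to -0.19 ± 0.21 for Gimap9 (adjusted p = 0.84). For all but Gimap7 and Gimap9 that direction rested on replicate 2. Without it 6 of the 8 differences were above 0, from 0.05 for Gimap3 (adjusted p = 0.966) to 1.2 for Gimap4 (adjusted p = 0.0912), and Gimap8 passed as higher in rEC cells at 0.66 (adjusted p = 0.0405). Gimap8 had 27.0 and 50.8 FPKM in rEC replicates 1 and 3 and 2.22 FPKM in replicate 2, against 26.9, 23.1 and 20.0 FPKM in control cells. With libraries weighted by quality, Gimap1, Gimap4 and Gimap7 were higher in rEC cells, by 0.40, 1.47 and 0.86, and Gimap9 was lower, at -0.36 (adjusted p = 0.0275). The 8 neutrophil markers, with 2 of them at 0 in rEC replicate 2 and none in the other LKS-SLAM libraries, summed to 421, 12.4 and 29.3 FPKM in rEC LKS-SLAM cells, against 1687, 1256 and 1584 FPKM in control LKS-SLAM cells, and their part in the differences was not tested.

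The cultured FGRS cells were low in every member. Against control LKS-SLAM cells all 8 members fell, where 31.7% of all genes tested fell, and the members' median log2 difference was -3.04, against -0.19 for all genes. Against rEC LKS-SLAM cells 7 fell, where 27.8% of all genes fell, with medians of -2.68 for the members and -0.14 for all genes. The exception was Gimap7, at -0.95 ± 0.49 (SE, limma adjusted p = 0.124), whose level in LKS-SLAM cells was itself low. It was a call without rEC LKS-SLAM replicate 2 (-1.47, adjusted p = 0.0147) and with a pseudocount of 0.1 (-1.84, adjusted p = 0.0472).

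Gimap5 showed the largest fall. It had 1.37, 0.400 and 0.649 FPKM in FGRS cells, against 42.7, 3.51 and 75.4 FPKM in rEC LKS-SLAM cells and 48.1, 48.4 and 37.5 FPKM in control LKS-SLAM cells. Every FGRS library lay below every LKS-SLAM library. The log2 difference was -3.81 ± 0.56 from rEC cells (SE, limma adjusted p = 1.66e-05) and -4.69 ± 0.56 from control cells (adjusted p = 1.62e-06).

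Gimap6 and Gimap1 remained the most abundant members in the culture. Gimap6 had 13.7, 7.21 and 5.46 FPKM in FGRS cells, against 161, 176 and 193 FPKM in control LKS-SLAM cells, a log2 difference of -4.27 ± 0.50 (SE, limma adjusted p = 1.29e-06). Gimap1 had 10.4, 5.69 and 5.39 FPKM in FGRS cells, against 74.8, 80.3 and 88.5 FPKM, a log2 difference of -3.38 ± 0.39 (adjusted p = 1.16e-06). The other 5 differences from control LKS-SLAM cells were -3.73 ± 0.54 for Gimap8, -2.70 ± 0.53 for Gimap3, -2.57 ± 0.73 for Gimap4, -2.27 ± 0.21 for Gimap9 and -1.68 ± 0.49 for Gimap7. Gimap7 had 0.253, 0.310 and 0.132 FPKM in FGRS cells, and its call was lost without control LKS-SLAM replicate 3 (-0.83, adjusted p = 0.083) and with quantile normalisation (-1.18, adjusted p = 0.0793). Against rEC LKS-SLAM cells the calls of Gimap3 and Gimap4 were lost without rEC replicate 1 (adjusted p = 0.0693 and 0.0952) or replicate 3 (adjusted p = 0.0998 and 0.129). The Gimap4 call was also lost without FGRS replicate 3 (adjusted p = 0.0729). On the FGRS and rEC LKS-SLAM libraries alone, 1 member passed, and the all-gene share given above does not apply to that fit.

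In the culture, stem cell markers were low and monocyte and macrophage markers were raised, while neutrophil markers varied between libraries. The 7 stem cell markers summed to 72.5, 37.2 and 49.0 FPKM in FGRS cells, against 553, 528 and 473 FPKM in control LKS-SLAM cells. The 7 monocyte and macrophage markers summed to 474, 3056 and 2323 FPKM in FGRS cells, against 241, 215 and 276 FPKM in control LKS-SLAM cells. The 8 neutrophil markers summed to 158, 3839 and 1148 FPKM in FGRS cells, against 1687, 1256 and 1584 FPKM in control LKS-SLAM cells. No stem cell or monocyte marker was at 0 in an FGRS library. FGRS replicate 1, with the lowest monocyte sum, had the highest family sum, 35.3 FPKM, against 18.4 and 15.4 FPKM in replicates 2 and 3. The part of these cells in the GIMAP values was not tested.

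Set against control myeloid cells, FGRS cells differed in 1 member, which was higher, where 37.8% of all genes tested were higher. Gimap6 had 13.7, 7.21 and 5.46 FPKM in FGRS cells, against 1.09 and 3.43 FPKM in myeloid cells, a log2 difference of 1.59 ± 0.56 (SE, limma adjusted p = 0.0182). The ranges did not overlap, but the call was lost without control myeloid replicate 1 (1.05, adjusted p = 0.233), without FGRS replicate 1 (1.26, adjusted p = 0.0844) and with quantile normalisation (1.18, adjusted p = 0.105). Gimap9 had 3.72, 1.80 and 2.30 FPKM in FGRS cells, against 3.13 and 4.0 FPKM in myeloid cells, and was lower without FGRS replicate 1 (-0.58, adjusted p = 0.0391).

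The order of levels over the 11 groups differed between members. Gimap1 had its highest means in control and rEC B cells, at 269 ± 36.8 and 267 ± 44.8 FPKM (SD, n = 3 each). Their ranges overlapped each other and that of control CD4 cells at 226 ± 36.7 FPKM (SD, n = 2). Gimap3 had its highest mean in control CD4 cells at 822 ± 30.9 FPKM (SD, n = 2), overlapping rEC CD4 cells at 801 ± 79.4 FPKM (SD, n = 2). It also overlapped rEC CD8 cells at 782 ± 117 FPKM (SD, n = 3), which held the highest library at 915 FPKM. Gimap5 had its highest means in rEC CD8 cells at 58.1 ± 7.90 FPKM and control CD8 cells at 54.2 ± 2.45 FPKM (SD, n = 3 each). Both ranges overlapped that of rEC B cells at 50.6 ± 4.70 FPKM (SD, n = 3). Its lowest mean was in rEC myeloid cells at 0.0116 ± 0.0164 FPKM (SD, n = 2), where 1 library was listed at 0. Across the 11 group means the least alike pair of members was Gimap5 and Gimap7, with a Pearson's r of 0.83.

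Over the same 11 group means, the genes whose log2 level was most like the mean of the members were Zfp7 (r = 0.995), Pou6f1 (0.993), Zbtb4 (0.993), Araf (0.992) and Mettl23 (0.992). For single members, Fam169b was the most alike to both Gimap3 (0.997) and Gimap4 (0.996), Foxo1 to Gimap9 (0.992), Zbtb4 to Gimap8 (0.994) and Gm614 to Gimap7 (0.992). Ttc5 was the most alike to Gimap1 (0.99), Zfp317 to Gimap6 (0.989) and Vmac to Gimap5 (0.985). Fam169b averaged 73.9, 65.9 and 48.7 FPKM in control CD4, CD8 and B cells and 4.13 FPKM in control LKS-SLAM cells. With 11 points that fall into lymphocytes and other cells, high values of r are common, and they describe these groups only.

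The nearest measured gene beyond Gimap3 was lower, not higher, in lymphocytes than in LKS-SLAM cells. Tmem176b, which encodes a transmembrane protein, averaged 12.0 FPKM in control CD4, 10.3 FPKM in CD8 and 2.77 FPKM in B cells, against 292 FPKM in control LKS-SLAM cells. It fell by 4.56 ± 0.56, 4.75 ± 0.50 and 6.29 ± 0.50 on the log2 scale (SE, limma adjusted p = 9.63e-07, 9.56e-08 and 1.08e-09). In FGRS cells it averaged 67.3 FPKM and fell by 2.18 ± 0.50 (adjusted p = 0.00129), the direction of the GIMAP members there. Zfp775 and AI854703, on the other side of the cluster, averaged under 4 FPKM in every group. Against control LKS-SLAM cells, Zfp775 rose in CD8 cells (0.41 ± 0.17, adjusted p = 0.0472) and did not pass in CD4 or B cells (adjusted p = 0.0588 and 0.445). AI854703 fell in B cells (-0.996 ± 0.30, adjusted p = 0.00828) and did not pass in CD4 or CD8 cells (adjusted p = 0.47 and 0.31). In FGRS cells both fell, at -0.51 ± 0.17 and -1.05 ± 0.30 (SE, limma adjusted p = 0.0158 and 0.00728).

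Of the 18 genes of lymphocyte homeostasis, 15 rose in control CD4 cells, 15 in CD8 cells and 10 in B cells against control LKS-SLAM cells, where 18.6%, 17.0% and 18.9% of all genes did. The survival genes Mcl1 in CD8 cells (-1.05 ± 0.38, adjusted p = 0.0259) and Bcl2l1 in B cells (-2.56 ± 0.37, adjusted p = 5.32e-06) were the falls, where 33.2% and 36.7% of all genes fell. Tcf7, a transcription factor of T cells, rose by 8.33 ± 1.30 in CD4 and 8.10 ± 1.16 in CD8 cells on the log2 scale, and the homing receptor Ccr7 by 7.96 ± 0.52 and 7.48 ± 0.47. In B cells Ccr7 rose by 7.32 ± 0.47 and the transcription factor Ets1 by 4.80 ± 0.41 (SE, limma adjusted p at most 1.89e-05 for these 6). Against control B cells, 5 of the 18 were higher in CD4 cells, where 12.6% of all genes were, led by Tcf7 at 8.37 ± 1.30 and the interleukin 7 receptor gene Il7r at 7.92 ± 1.31. In FGRS cells 3 rose and 7 fell against control LKS-SLAM cells, where 17.1% and 31.7% of all genes did, with the transcription factor Klf2 at -3.64 ± 0.70. The list's median there was -0.34, against -3.04 for the GIMAP members and -0.19 for all genes.

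The 17 other immune GTPases, which are guanylate-binding, immunity-related and Mx proteins induced by interferons, had list medians nearer 0 than the GIMAP members in lymphocytes. Against control LKS-SLAM cells, 7 rose in CD4 cells, 8 in CD8 cells and 1 in B cells, where 18.6%, 17.0% and 18.9% of all genes did, with list medians of 0.57, 0.60 and -0.14. In B cells 3 fell, where 36.7% of all genes did: Tgtp1 at -1.85 ± 0.50, Tgtp2 at -1.74 ± 0.58 and Gbp7 at -1.65 ± 0.48. Gbp4 led in CD4 and CD8 cells at 3.05 ± 0.73 and 2.62 ± 0.66, and Gbp9 was the gene that rose in B cells at 2.2 ± 0.54. In FGRS cells 13 of the 17 fell and none rose against control LKS-SLAM cells, where 31.7% and 17.1% of all genes did. The list's median there was -2.07, against -0.19 for all genes. Tgtp2 fell by 3.22 ± 0.58 and Irgm2 by 3.0 ± 0.56 on the log2 scale (SE, limma adjusted p = 0.00014 and 0.0002). Against control myeloid cells, 11 of the 17 were also lower in FGRS cells, where 20.3% of all genes were lower and no GIMAP member passed in that direction. In rEC against control cells none of the 17 passed in any of the 5 cell types, where at most 1.32% of all genes did.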

How the data were processed

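Gene expression was measured by non-stranded, poly-A selected TruSeq v2 RNA sequencing in 30 mouse libraries, read as 51 bp paired ends, per the labels' protocols. The deposited values are FPKM, with 1 value per gene symbol and library. The tools in the submitters' processing notes are TopHat2 2.1.0, Cufflinks 2.2.1, Trimmomatic 0.36, bcl2fastq 2.17 and FastQC 0.11.5, with mm10 as the build. Their order and settings are not given in the sources used here.

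Libraries were grouped by title. A B220+ library of clone 47G1 annotated as wild type had no clear group and entered no comparison. A single limma 3.58.1 model (R 4.3.3) with an intensity trend was fitted to log2(FPKM + 1) with a mean for each of the 11 groups of 29 libraries (18 residual degrees of freedom). A gene entered if 2 or more libraries reached 1 FPKM, which left 14083. All 23 comparisons were two-sided apart from the F test, which has no direction, and were adjusted by Benjamini-Hochberg over all genes and called at 0.05. Differences on this scale understate changes of low genes. The model was tested on simulated data. Group means, shares, overlaps, correlations and promoter words were computed in Python 3.11.15 with numpy 2.4.6, pandas 2.3.3 and matplotlib 3.10.9.

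The members, the gene lists and the settings were chosen with earlier results of these data known. The naming rule takes all members, the 5 genes most like their mean, the 1 most like each, table neighbours, and per list up to 2 rises and 2 falls that passed. Not every gene that the rule takes is reported here. Gene positions are GENCODE M21 and promoters RefSeq, both on the mm10 assembly. The alternatives were another pseudocount, other filters, quantile normalisation, quality weights, the compared groups alone, a replicate block and leaving out libraries.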

Additional observations from a re-analysis of the deposited data

Results flagged for a closer look

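Gimap3 had origin differences of opposite sign in 2 cell types, with separate ranges in both and neither past the test. Among all genes tested, 14.9% had separate and higher ranges in rEC CD8 cells, and 28.6% had separate and lower ranges in rEC myeloid cells. In CD8 cells every rEC library (701, 915 and 729 FPKM) lay above every control library (606, 520.1 and 592 FPKM), a log2 difference of 0.44 ± 0.53 (SE, limma adjusted p = 1). In myeloid cells both rEC libraries (0.536 and 0.0208 FPKM) lay below both control libraries (1.31 and 2.57 FPKM), a log2 difference of -1.20 ± 0.65 (adjusted p = 1). The B cell markers summed to 52.3, 18.2 and 71.2 FPKM in rEC CD8 cells, against 536, 349 and 232 FPKM in control CD8 cells, and to 8.18 and 6.74 FPKM in rEC myeloid cells, against 19.8 and 45.2 FPKM in control myeloid cells, and their part was not tested. The F test over the 5 cell types did not pass for Gimap3 (limma adjusted p = 1), and the difference between these 2 cell types alone was not tested.

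The B220+ library of clone 47G1 that was left out of the comparisons held 4 members above the highest control B cell library. It had 375 FPKM of Gimap4, 559 FPKM of Gimap6, 94.5 FPKM of Gimap7 and 177 FPKM of Gimap8, against highest control B cell values of 370.1, 557, 84.9 and 144 FPKM. Gimap4, Gimap6 and Gimap7 exceeded those values by less than the range of the control libraries, which for Gimap7 ran from 70.0 to 84.9 FPKM. Gimap1, Gimap3, Gimap5 and Gimap9 lay within the control range at 305, 337, 49.6 and 76.8 FPKM.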

How the results depend on the processing

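Of 2792 member differences recomputed under other settings, 2656 kept their direction and their side of the threshold, 59 lost a call, 70 gained one and 7 changed sign with a call. The sign changes were those of Gimap1 (0.40), Gimap4 (1.47) and Gimap7 (0.86) in rEC against control LKS-SLAM cells with quality weights, and, without rEC LKS-SLAM replicate 2 (also without rEC B cell replicate 1), those of Gimap5 in rEC CD4 against rEC LKS-SLAM cells (-0.61) and of Gimap8 in rEC against control LKS-SLAM cells (0.66). Quality weights, whose estimation gave a convergence warning, called 4 members in CD4 against B cells, 3 in CD8 against B cells, 1 in CD4 against CD8 cells of either origin, 4 in rEC LKS-SLAM and 3 in rEC myeloid against control cells, 6 in FGRS against control myeloid cells, 1 for the mean origin difference and 4 in the F test. With the compared groups alone, 3 members passed in each of CD4 against B, CD8 against B and CD4 against CD8 control cells, 3, 4, 4 and 2 in rEC CD4, CD8, B and myeloid cells against rEC LKS-SLAM cells, and 1 in FGRS against rEC LKS-SLAM cells. The cause was not tested. Counts of all genes called also moved between refits, so member counts of a refit cannot be read against the all-gene shares of the main fit. The all-gene shares of the refits are not given here. Member counts of the refits therefore describe how calls moved and cannot be told from what all genes did. Over the refits that left out libraries, the first of these Gimap5 and Gimap8 differences reached at most 1.44 and the second at least -1.35, both without rEC LKS-SLAM replicate 3. Leaving out libraries gave 0 to 2 members in CD4 against B and in CD8 against B cells, 0 to 1 in rEC against control LKS-SLAM cells and 0 to 1 in FGRS against control myeloid cells. Without both atypical libraries 2 members passed in each of CD4 against B and CD8 against B cells, and 1 in rEC against control LKS-SLAM cells. Without rEC LKS-SLAM replicate 2 alone the counts were 2, 1 and 1.

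With the number in the title as a replicate block, 1 member passed in CD4 against B cells, 1 in CD8 against B cells and 2 in FGRS against control myeloid cells. The same 18 numbered libraries without that block, a setting added after seeing the data, gave 2 and 1 in the first pair of comparisons. Deviations of same-numbered libraries had a median r of 0.01 (48 pairs, 6 over 0.1), and those of other pairs a median of 0 (90 pairs, 11 over 0.1). No pairing by number was seen. Deviations from the mean of 2 or 3 libraries cancel within a group, so these values cannot exclude pairing. Against the fit of all libraries, 6 of 88 member calls changed in the block fit and 5 in the fit of the same libraries without the block, 4 of them in both, and 3 calls differed between these fits. Counts of all genes called moved by more than 1.5 times in 97 of 382 refits. Depth is unknown from FPKM, and members under about 1 FPKM, in myeloid and FGRS cells, have the least precise values.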
